A study of Rattus norvegicus with 6 samples.

Results

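Egr1, Egr2, Egr3 and Egr4 encode zinc finger transcription factors of the early growth response family, and Nab1 and Nab2 encode the corepressors that bind them. These 6 genes were followed in rat ovaries after lean feeding or overfeeding. The members are all probe sets, the groups of short probes that an Affymetrix array uses to read 1 transcript, which the platform annotation maps to 1 of these genes alone. All 6 genes were found, of 14217 named on the array, with 9 such probe sets among 31042 tested, and 0 probe sets shared with another gene had to be left out. Egr2, Egr4 and Nab1 were read by 2 probe sets each, and Egr1, Egr3 and Nab2 by 1 each.

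The rats were fed by tube (total enteral nutrition) for 28 days, the lean group on 155 and the overfed group on 220 kcal per kg of metabolic weight. All were then mated with lean males, and their ovaries were frozen at 4.5 days post coitum. The labels used here give neither strain nor age. Each of the 6 arrays held 1 RNA pool, 3 lean and 3 overfed, and the labels used here do not give the number of rats in a pool. The p-values measure the spread between pools, which may be partly technical.

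Egr genes are immediate-early genes. Growth factors and gonadotropins activate the ERK kinases, which phosphorylate ternary complex factors bound with serum response factor at the CArG boxes of Egr promoters, and transcription starts within minutes. The Egr proteins bind GC-rich sites through their zinc fingers. NAB proteins join them there, recruit a chromatin-remodelling corepressor and are themselves induced by Egr proteins, which closes a feedback loop. In the ovary Egr1 responds to the luteinizing hormone surge in granulosa cells, and Egr2 is best known from Schwann cells and from macrophages and T cells.

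Promoter sequences are shown because the CArG boxes and Egr binding sites described above are short sequences that can be searched for in them. RefSeq promoters (build GRCr8, 250 bases before to 50 after the start site) were matched for 5 of the 6 genes, all but Egr3. The capitals mark CArG boxes and the sequence CGTCA, a part of the cAMP response element, in the first 3 stretches, and GCGNGGGCG, the Egr binding sequence, in the Nab1 stretch. Both strands were searched.
Egr1, chr18:26736963-26737026, plus strand: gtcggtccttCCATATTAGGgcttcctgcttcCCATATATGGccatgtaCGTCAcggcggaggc
Egr2, chr20:21054493-21054534, minus strand: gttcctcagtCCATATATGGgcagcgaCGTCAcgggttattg
Egr4, chr4:119607913-119607937, minus strand: tggtcatttaCGTCAcggcgccagg
Nab1, chr9:56545430-56545490, plus strand: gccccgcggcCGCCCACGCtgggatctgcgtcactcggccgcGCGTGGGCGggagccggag

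The whole Egr1 window held 2 CArG boxes and the Egr2 window 1, whereas 0 were found in the windows of Egr4, Nab1 and Nab2. Egr1 and Egr2 had a CArG box of the same 10 letters at the same place, bases -83 to -74 from the start site, followed in both by CGTCA at -66 to -62. A CArG box stood in 1.64% of the 33469 promoters of this length and CGTCA in 21.2%. CGTCA occurred 2 times in the Egr1 window, 2 times in that of Egr4 and 1 time each in those of Egr2 and Nab1. The Nab1 window held 4 matches to GCGNGGGCG, which overlap in part with its 10 matches to GGGCGG, and the other windows held 0 matches to GCGNGGGCG. The windows of Egr2 and Egr4 held 1 match each to GGGCGG. GCGNGGGCG was found in 4.98% of all promoters and GGGCGG in 33.1%. The letters G and C made up 81.7% of the Nab1 window, against 59% to 73.3% of the other windows. The shares over all promoters were not matched for this. These matches describe letters in a window and no binding was measured.

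Setting overfed beside lean ovaries asks whether diet moved the Egr and Nab transcripts, and the series names Egr1 as a subject. The deposited values are logarithms, read here as log2, relative to the median of the same probe set over the 6 arrays. A value of 0.31 therefore means that a pool lay above that median, and no absolute level is known. Whether a gene or an ovarian marker was expressed at all cannot be read from such values. In whole tissue, fewer cells of a type and less RNA per cell cannot be told apart.

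Lean pool 3 and overfed pool 1 stood apart from the other arrays. In lean pool 3 the beta-actin control gave a 3' minus 5' difference of 0.36 on the log2 scale, against -0.062 to 0.061 in the others, and 9 spiked hybridization controls averaged 0.50. That mean was 0.045 and 0.060 in the other lean pools and -0.25 to -0.041 in the overfed pools, so it did not overlap between the diets. Overfed pool 1 had the largest SD over probe sets, 0.29, against 0.14 to 0.24 in the others. The part of these array differences in the results was not tested, and each member's difference is also given with both left out.

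No Egr or Nab probe set passed the test, and neither did any probe set on the array. In limma's moderated test with Benjamini-Hochberg adjustment over all 31042 probe sets, 0 of the 9 had an adjusted p under 0.05, where the background was 0% and the smallest adjusted p of all was 0.623. At an unadjusted p under 0.05 there was 1 of 9, a probe set of Egr2, against 6.67% of all probe sets. The groups did not overlap in 1 of 9, the probe set of Egr3, which was lower in overfed ovaries, against 12.7% of all probe sets (7.35% higher and 5.33% lower). Overfed ovaries were on the higher side in 2 of the 9 and on the lower side in 7, with a median log2 difference of -0.03 against 0.015 over all probe sets.

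**Figure D1:**
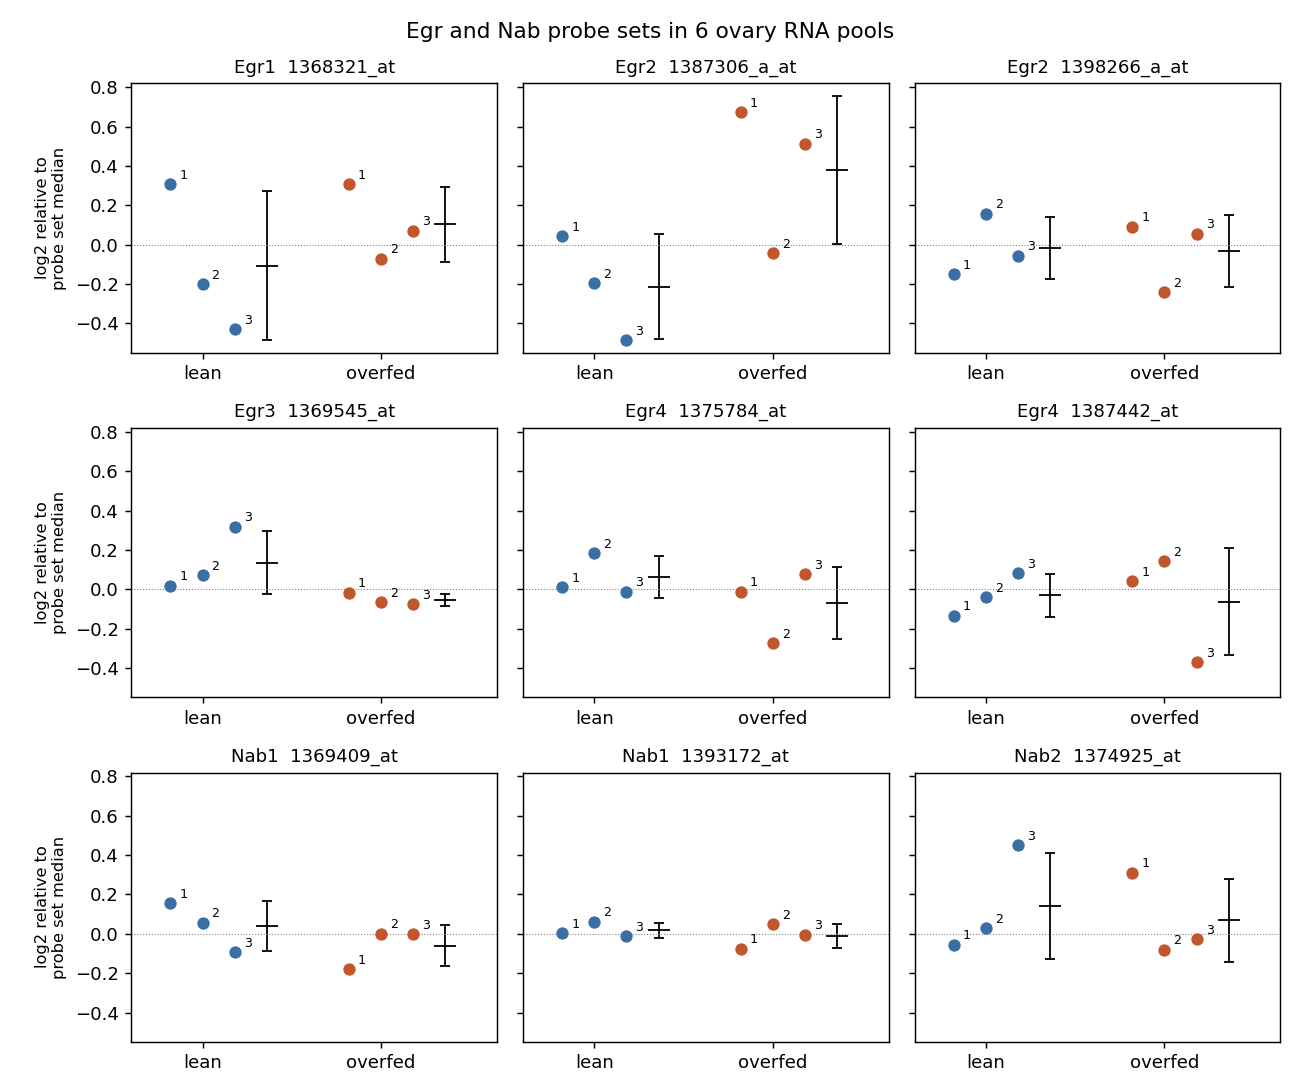
Log2 value relative to the probe set's median (y axis) for the 9 Egr and Nab probe sets in lean (blue) and overfed (orange) pools. Points are pools, labelled by pool number, and the black dash and bar give the group mean and SD of 3 pools. The first Egr2 probe set has the widest spread, from -0.49 to 0.67, and Egr3 is the panel in which the groups do not overlap.

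Egr1, the family member named by the series, was read by probe set 1368321_at. Its log2 values relative to the median were 0.31, -0.20 and -0.43 across lean pools 1 to 3, then 0.31, -0.07 and 0.07 across overfed pools 1 to 3. The highest lean and the highest overfed pool were therefore level, and the groups differed at their lower end, where lean pool 3 was the lowest of all. The means were -0.11 (SD 0.38, n = 3) in lean and 0.10 (SD 0.19, n = 3) in overfed ovaries.

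The Egr1 difference of 0.21 on the log2 scale (SE 0.20) was smaller than the SD of the lean pools, with a limma adjusted p of 0.888. Its 95% interval ran from -0.26 to 0.68, or 0.837-fold to 1.60-fold, so these pools cannot tell a moderate rise from a small fall. The lean pools alone spanned 0.74, as much as all 6 pools together. A range of this size or wider was seen in few probe sets, since 87.1% of all probe sets had a smaller one. Without lean pool 3 the Egr1 difference was 0.048, without overfed pool 1 it was 0.11, without lean pool 1 it was 0.42 (limma unadjusted p of 0.0301, adjusted p of 0.847), and with both of the pools that stood apart left out it was -0.055.

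Egr2, also called Krox20, showed the widest difference of the family in 1 of its 2 probe sets. Probe set 1387306_a_at had log2 values of 0.04, -0.20 and -0.49 across lean pools 1 to 3, then 0.67, -0.04 and 0.51 across overfed pools 1 to 3. Overfed pools 1 and 3 were above every lean pool, whereas overfed pool 2 lay within the lean range, so the groups overlapped. The lean mean was -0.21 (SD 0.27, n = 3) and the overfed mean 0.38 (SD 0.38, n = 3).

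The difference of 0.59 on the log2 scale (SE 0.21), or 1.51-fold with a 95% interval from 1.07-fold to 2.14-fold, was larger than 98.3% of the absolute differences on the array. The limma unadjusted p was 0.0265 and the adjusted p 0.708, and the exact permutation test over pools, two-sided, gave p = 0.2, where 3 against 3 pools cannot go below 0.1. With any 1 pool left out the difference stayed between 0.45 and 0.81. The limma unadjusted p was above 0.05 without lean pool 2 (0.0566), lean pool 3 (0.0891), overfed pool 1 (0.0782) or overfed pool 3 (0.0815). The difference was 0.31 with lean pool 3 and overfed pool 1 both left out, with a limma unadjusted p of 0.187.

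The other Egr2 probe set, 1398266_a_at, did not follow the first. It had log2 values of -0.15, 0.16 and -0.06 across the lean pools, then 0.09, -0.24 and 0.06 across the overfed pools. Its difference was -0.01 (SE 0.13, limma adjusted p = 0.991), with a 95% interval from 0.804-fold to 1.22-fold. With lean pool 3 and overfed pool 1 both left out it was -0.10. The 2 probe sets had the same sign in 4 of 6 pools, and overfed pool 1 was above the median in both. Because values are relative to the median, as many pools lie above it as below by construction, so sign counts are coarse.

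The gap between the 2 Egr2 probe sets was set out pool by pool. The first minus the second was 0.20, -0.35 and -0.43 across the lean pools, then 0.58, 0.197 and 0.46 across the overfed pools. All overfed pools were above all lean pools, overfed pool 2 by very little. The overfed minus lean difference of this gap was 0.61, for which the exact two-sided permutation test gave p = 0.1, the smallest it can give, or 0.3 when adjusted over the 3 genes with such a gap. The mean of both probe sets gave an Egr2 difference of 0.29 (limma adjusted p = 0.789). Both probe sets carry the array's suffix for probes that can read several transcripts of 1 gene, and which Egr2 transcripts each one reads was not analysed here.

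Egr3, induced by antigen receptors and by nerve growth factor, was the member whose groups did not overlap. Probe set 1369545_at had log2 values of 0.02, 0.07 and 0.32 across lean pools 1 to 3, then -0.02, -0.06 and -0.08 across overfed pools 1 to 3. The overfed pools lay close together, over a range of 0.059, while the lean pools spanned 0.30, most of it from lean pool 3. Lean pool 1 and overfed pool 1 were separated by little, being the pair on either side of the median.

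The lean mean of Egr3 was 0.14 (SD 0.16, n = 3) and the overfed mean -0.05 (SD 0.03, n = 3). The difference of -0.19 (SE 0.10) had a limma adjusted p of 0.824 and a 95% interval from 0.744-fold to 1.03-fold. The exact two-sided permutation test gave p = 0.1, the smallest possible. Without lean pool 3 the difference was -0.10, with overfed pool 1 left out as well it was -0.12, and it was negative with any 1 pool left out.

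Egr4, the family member without a NAB binding domain, gave small differences in both of its probe sets. In 1375784_at the log2 values were 0.01, 0.18 and -0.01 across the lean pools, then -0.01, -0.27 and 0.08 across the overfed pools. In 1387442_at they were -0.13, -0.04 and 0.08 across the lean pools, then 0.04, 0.14 and -0.37 across the overfed pools. The 2 probe sets had opposite signs in 6 of 6 pools, with overfed pool 2 lowest in the first and highest in the second.

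The Egr4 differences were -0.13 (SE 0.12) in the first and -0.03 (SE 0.15) in the second, with limma adjusted p-values of 0.884 and 0.981. Their 95% intervals were 0.755-fold to 1.10-fold and 0.770-fold to 1.24-fold. The first was at -0.03 without overfed pool 2, -0.20 without overfed pool 3 and -0.20 with lean pool 3 and overfed pool 1 both left out. The second turned to 0.12 without overfed pool 3 and to 0.0056 with quantile normalization. It was also above 0 without lean pool 3, at 0.025, and at -0.03 with overfed pool 1 left out as well, so its sign is not settled.

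Nab1, the more widely expressed corepressor, gave the smallest range of the family in 1 of its 2 probe sets. Probe set 1369409_at had log2 values of 0.16, 0.06 and -0.09 across the lean pools, then -0.18, 0.00061 and -0.00061 across the overfed pools. Probe set 1393172_at had 0.0038, 0.06 and -0.01 across the lean pools, then -0.08, 0.05 and -0.0038 across the overfed pools. The 2 probe sets had the same sign in 6 of 6 pools, and overfed pool 1 was the lowest in both.

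The Nab1 differences were -0.10 (SE 0.10) and -0.03 (SE 0.08), with limma adjusted p-values of 0.896 and 0.970. The first was at -0.04 without overfed pool 1, -0.17 without lean pool 3 and -0.11 with both left out. The second was at 0.0042, -0.04 and -0.01 under the same omissions. The range of the second over all pools, 0.14, was among the narrowest on the array, since only 3.51% of probe sets had a smaller one. Its 95% interval, 0.863-fold to 1.11-fold, was the tightest of the 9 member probe sets.

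Nab2, the corepressor that Egr proteins themselves induce, was read by probe set 1374925_at. Its log2 values were -0.06, 0.03 and 0.45 across lean pools 1 to 3, then 0.31, -0.08 and -0.03 across overfed pools 1 to 3. The high pools were lean pool 3 and overfed pool 1, the 2 that stood apart on the array, and the other 4 lay between -0.08 and 0.03. The difference was -0.07 (SE 0.17, limma adjusted p = 0.962), with a 95% interval from 0.725-fold to 1.25-fold. It turned to 0.08 without lean pool 3, it was -0.19 without overfed pool 1, and it was -0.04 with both left out.

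**Figure D2:**
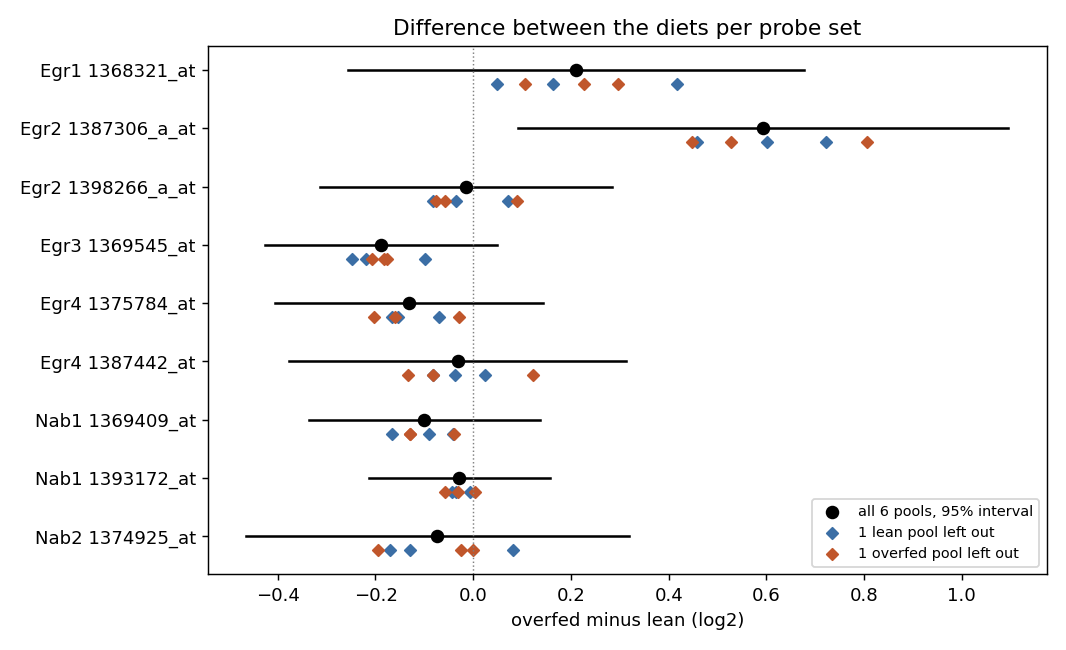
Overfed minus lean difference on the log2 scale (x axis) for each Egr and Nab probe set. Black points and lines give the value from all 6 pools with its 95% interval from limma, and diamonds the value with 1 lean (blue) or 1 overfed (orange) pool left out. The interval holds 0 in 8 of the 9 probe sets, the exception being the first probe set of Egr2.

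Across the family, the pools did not rank alike. Lean pool 3 was the lowest pool for Egr1 and for the first Egr2 probe set, and the highest for Egr3 and Nab2. Overfed pool 1 was the highest for Egr1 and the first Egr2 probe set and the lowest for both Nab1 probe sets. Overfed pool 3 was the highest pool in 0 of the 9 probe sets, against 20.6% of all probe sets. Lean pools 1 and 2 were the lowest in 0, against 17.1% and 13.8%. Lean pool 2 was the highest in 3, against 15.5%, and overfed pool 2 the lowest in 3, against 11.3%. With 9 probe sets such counts are coarse. By the root-mean-square difference over the 6 pools, the closest pair of probe sets joined different genes, Egr2 1398266_a_at and the Egr4 probe set 1375784_at, at 0.083 on the log2 scale. The 2 probe sets of Nab1 followed at 0.084, while those of Egr4 were 0.28 and those of Egr2 0.39 apart. This measure is small wherever values vary little, and the 2 Nab1 probe sets ranged over 0.33 and 0.14 only. A small distance between them is therefore no measure of how well they agree.

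The genes nearest to Egr1 by the same measure, among 20418 named probe sets, were Apol9a, an apolipoprotein L gene (0.084), Nolc1, a nucleolar phosphoprotein (0.098), and Mia3, a cargo receptor for secretion (0.11). All 3 had lean pool 3 as their lowest pool, as Egr1 had. The genes nearest to Egr2 1387306_a_at were Pprc1, a coactivator of mitochondrial gene expression (0.16), the matrix proteoglycan Vcan (0.16) and the homeobox gene Meox1 (0.17). The median probe set lay 0.30 from Egr1 and 0.43 from Egr2 1387306_a_at. Nab2 was nearest to the endothelial diaphragm gene Plvap (0.031), the cofilin phosphatase Ssh1 (0.033) and Efhd2 (0.035), which like Nab2 were high in lean pool 3 and overfed pool 1. Egr4 1387442_at lay nearest to Lrrc15 (0.039), Brd3os (0.040) and Celf3 (0.047). With so many probe sets and 6 pools, close profiles are to be found for almost any gene.

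**Figure D3:**
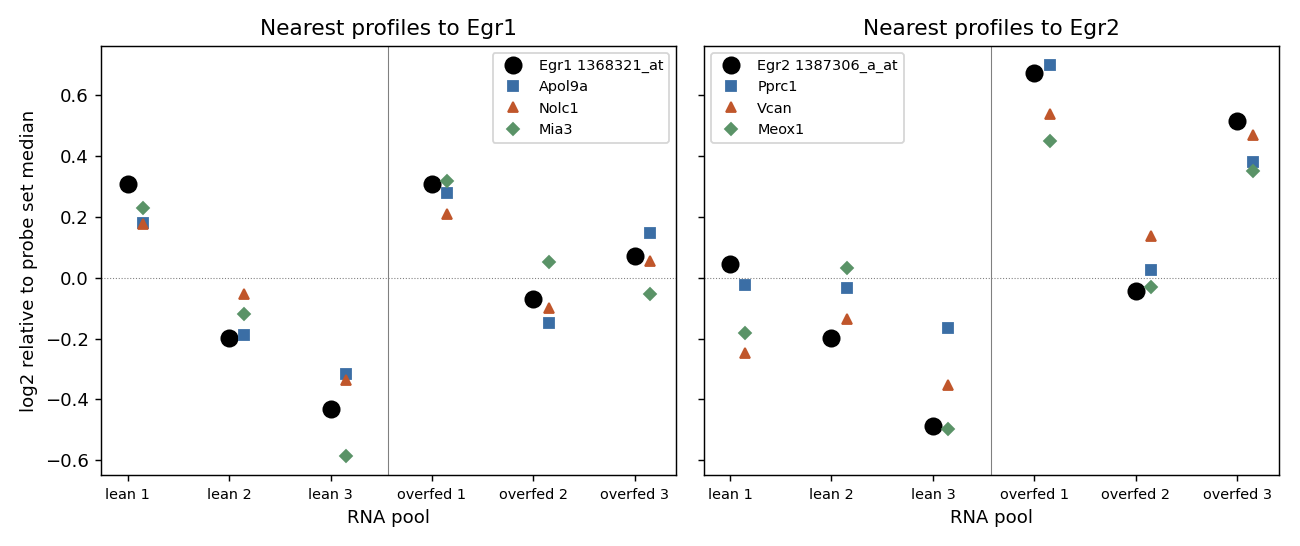
Log2 values relative to the probe set median (y axis) in each of the 6 RNA pools (x axis) for Egr1 (left) and Egr2 1387306_a_at (right), in black, and the 3 genes with the nearest profile to each, in colour. The genes beside Egr1 are lowest in lean pool 3, and those beside Egr2 are highest in overfed pools 1 and 3.

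Beyond the members, 117 genes that act upstream of, beside or downstream of Egr proteins were listed in 6 groups, and 99 of them were measured. None passed the adjusted threshold (0 of 99). At an unadjusted limma p under 0.05 there were 8 of 99, or 8.08%, beside 6.67% of all probe sets, of which 5 were higher and 3 lower. No overlap between the groups was seen in 9 of the 99 genes, or 9.09%, below the 12.7% of all probe sets.

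Among the upstream receptors and ligands, 12 of 13 were measured, with 1 higher (3.31% of all probe sets) and 1 lower (3.36%) in overfed ovaries at an unadjusted p under 0.05. Egfr, the epidermal growth factor receptor that relays ovulatory signals in the follicle, had log2 values of -0.28, -0.30 and -0.11 across the lean pools, then 0.22, 0.46 and 0.11 across the overfed pools. No overfed pool reached down to the lean range, and the difference was 0.49 (SE 0.11, 1.41-fold), with a limma unadjusted p of 0.0035 and an adjusted p of 0.623. Of its other probe sets, 1381145_at gave 0.42 and 1385413_at gave -0.04.

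Its ligand Ereg, epiregulin, went the other way. The log2 values of Ereg were 0.38, 0.37 and -0.03 across the lean pools, then -0.39, 0.03 and -0.14 across the overfed pools, with a difference of -0.41 (SE 0.15, limma unadjusted p = 0.0311, adjusted p = 0.715). Lean pool 3 lay within the overfed range, so the groups overlapped. Without lean pool 1 the limma unadjusted p was 0.1, and it was also above 0.05 without lean pool 2, overfed pool 1 or overfed pool 3.

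The genes that carry the signal to Egr promoters gave small values. Of 21 listed genes of the ERK-SRF pathway, 13 were measured, 0 had an unadjusted limma p under 0.05 and 0 an adjusted p under 0.05, and their differences ran from -0.17 to 0.15 with a median of 0.010. The 2 with the lowest p were the MAP kinase kinase Map2k2 at -0.13 (SE 0.08) and Elk4, a ternary complex factor, at 0.13 (SE 0.09). Srf itself, whose protein binds CArG boxes, the sequence printed for Egr1 and Egr2, was at -0.13 (SE 0.15). Elk4 and Srf each had 2 other probe sets, and the mean of all Elk4 probe sets gave a difference of 0.19.

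The partners of the NAB proteins also gave small values. Of 15 listed corepressor and cofactor genes 14 were measured, 8 higher and 6 lower, with 0 at an unadjusted or adjusted limma p under 0.05 and a median of 0.017. The GC-box factor Sp1, which competes with Egr1 for overlapping sites, was at 0.20 (SE 0.11). Wt1, whose zinc fingers read a sequence like that of Egr1, was at -0.21 (SE 0.12). The remodelling ATPase Chd4, recruited by NAB2, was at -0.08 (SE 0.09).

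Known Egr target genes went in both directions. Of 32 listed, 26 were measured, 11 on the higher and 15 on the lower side, with a median of -0.02 against 0.015 over all probe sets. At an unadjusted p under 0.05 there were 3 (6.67% of all probe sets), of which 2 were higher (3.31%) and 1 lower (3.36%). Among the 26, 6 had groups without overlap, 4 of them higher (7.35% of all probe sets) and 2 lower (5.33%).

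Ccl2, the monocyte chemokine, had log2 values of -0.89, -0.21 and -0.54 across the lean pools, then 0.27, 0.27 and 0.21 across the overfed pools, with a difference of 0.80 (SE 0.17, 1.74-fold, limma adjusted p = 0.623). All overfed pools were above all lean pools. Plau, the urokinase that activates plasminogen, had -0.24, -0.02 and -0.30 across the lean pools, then 0.14, 0.02 and 0.60 across the overfed pools. Its difference was 0.45 (SE 0.16, limma adjusted p = 0.715), and it was 0.27 without overfed pool 3. Its unadjusted p was above 0.05 without that pool, lean pool 1 or lean pool 3. The other Plau probe set, 1387675_at, gave 0.35 (limma unadjusted p = 0.111).

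Vegfa, the endothelial growth factor, was on the lower side, with log2 values of 0.26, 0.17 and 0.02 across the lean pools, then -0.53, -0.23 and -0.02 across the overfed pools. Its difference was -0.41 (SE 0.14, limma adjusted p = 0.702) in the representative probe set and -0.16 in its other, 1370081_a_at. Without overfed pool 1 the first was at -0.28, and its limma unadjusted p was above 0.05 without that pool, lean pool 1 or lean pool 2. Among 6 measured of 7 myelin genes that Egr2 controls in Schwann cells, 1 had an unadjusted p under 0.05, a threshold that 6.67% of all probe sets passed. This was the gap junction gene Gjb1 at -0.32 (SE 0.12, limma adjusted p = 0.719), and the other 5 had differences from -0.08 to 0.26. The unadjusted p of Gjb1 was above 0.05 without lean pool 1, lean pool 3, overfed pool 1 or overfed pool 3.

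Companion immediate-early genes, which share inducers with Egr1, showed 12 higher and 16 lower among 28 measured of 29, with a median of -0.01. At an unadjusted limma p under 0.05 there were 2, or 7.14%, beside 6.67% of all probe sets. Both were higher, the zinc finger factor Klf6 at 0.31 (SE 0.09) and the MAP kinase phosphatase Dusp2 at 0.37 (SE 0.13), with adjusted p-values of 0.647 and 0.702. Of the other Klf6 probe sets, 1388986_at gave 0.21 and 1395557_at gave 0.27, with limma unadjusted p-values of 0.109 and 0.102. The unadjusted p of Dusp2 was above 0.05 without lean pool 1, lean pool 3, overfed pool 1 or overfed pool 2, and its difference was 0.26 with lean pool 3 and overfed pool 1 both left out. The mean of the 28 genes was highest in overfed pool 1, at 0.11, and lowest in overfed pool 2, at -0.12. In Egr1 overfed pool 1 was also the highest, level with lean pool 1, and overfed pool 2 was above both lean pools 2 and 3.

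**Figure D4:**
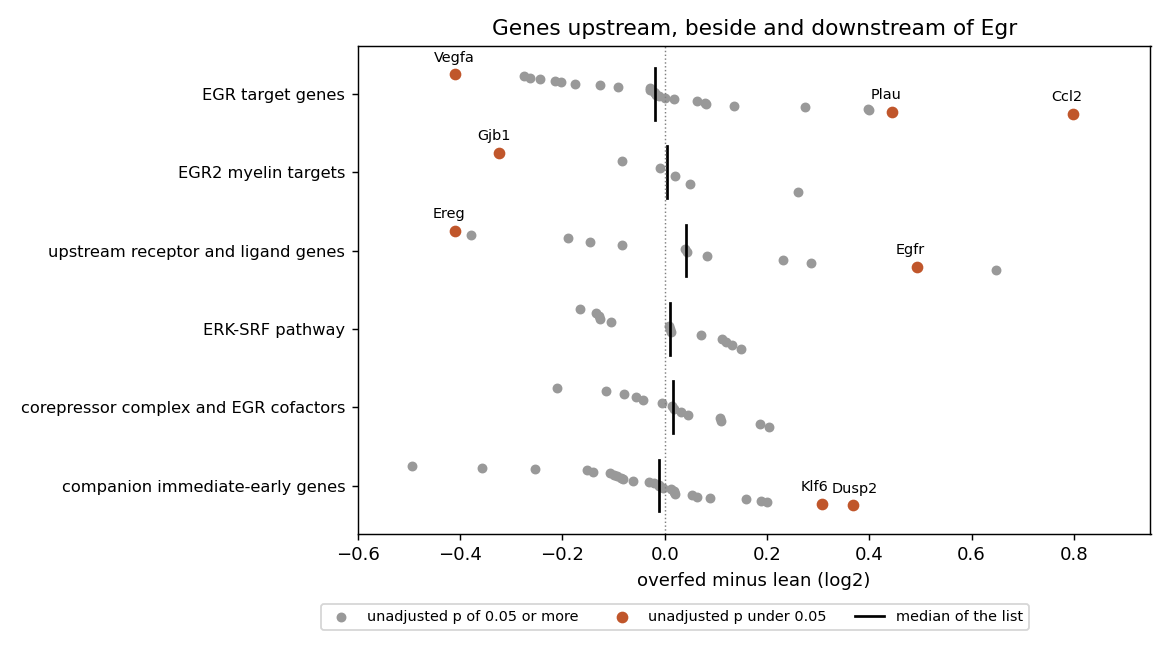
Overfed minus lean difference on the log2 scale (x axis) for the measured genes of 6 lists around Egr (rows), 1 point per gene, with orange points for an unadjusted limma p under 0.05 and a black bar for the list's median. The medians lie between -0.02 and 0.04, and the ERK-SRF and corepressor lists have 0 orange points.

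Markers of other cell types were set beside these genes. All 5 measured of 8 oviduct and ciliated epithelium markers (Foxj1, Tekt1, Rsph1, Dnai1 and Pax8) were on the lower side in overfed ovaries at an unadjusted limma p under 0.05, beside 3.36% of all probe sets. Their mean log2 values were 0.47, 0.13 and 0.85 across the lean pools, then -1.04, -0.23 and -0.74 across the overfed pools. Egr2 1387306_a_at was highest in overfed pools 1 and 3, the 2 pools with the lowest of these means, and lowest in lean pool 3, the pool with the highest. The remaining pools did not keep this order. Of them lean pool 1 had the highest marker mean and also the highest Egr2 value, 0.04, against -0.20 in lean pool 2 and -0.04 in overfed pool 2.

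Of 8 macrophage markers, 8 were measured, 7 were on the higher side and 3 had an unadjusted p under 0.05, all higher, beside 3.31% of all probe sets. Their mean log2 values were -0.10, -0.16 and -0.07 across the lean pools, then 0.07, 0.07 and 0.21 across the overfed pools, which do not overlap. The other lists held few genes past that threshold. For T and NK cell markers (8 of 8 measured) and Schwann cell and nerve markers (5 of 8 measured), 0 genes had an unadjusted or adjusted limma p under 0.05, and the medians were 0.03 and 0.0081. Granulosa markers had a median of 0.33 over 7 measured of 8, with 1 higher at an unadjusted p under 0.05, beside 3.31% of all probe sets. Theca and interstitial markers, 4 measured of 5, had a median of 0.18, with 1 higher at that p.

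Smooth muscle markers, 6 of 6 measured, had mean log2 values of 0.41, -1.17 and 0.75 across the lean pools, then 0.95, -0.46 and -0.63 across the overfed pools. Their highest pools were overfed pool 1 and lean pool 3, the same 2 as for Nab2, which was higher in lean pool 3. The other pools did not keep this likeness, since Nab2 was at -0.06 in lean pool 1 and 0.03 in lean pool 2. Adipocyte markers were on the lower side in 6 of 6, with a median of -0.35. Corpus luteum markers had a median of -0.06 over 8 of 8 and endothelial markers one of -0.0035 over 5 of 6. In these 4 lists 0 genes had an unadjusted or adjusted limma p under 0.05. The part of any of these cell types in the Egr and Nab values was not tested.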

How the data were processed

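Per the submitters' processing notes the arrays were processed in GCOS, with no version given. How probe sets were summarised, normalized or filtered, and the log base, is not given in the sources used here. Values deposited by the authors were taken as log2. The authors' table is centred, since the median of each of 31099 probe sets over the 6 arrays is 0 within 1e-06. Should they be natural logarithms, every fold printed lies too close to 1. The table held 0 columns of other samples.

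After 57 control probe sets were left out, 31042 were tested. Of these 20826 had 1 gene name in the platform annotation, 436 several and 9780 were unnamed here. Symbols were updated by Entrez identifier through RefSeq (GRCr8). Overfed minus lean was fitted in limma 3.58.1 under R 4.3.3 (lmFit, eBayes, no trend or covariate, two-sided, Benjamini-Hochberg over all probe sets, threshold 0.05), tested on simulated data first. Exact permutation tests used scipy 1.17.1, and figures matplotlib 3.10.9. In lists, 1 probe set stood for a gene: a RefSeq mRNA accession first, then unique before shared types, then the lowest identifier. Named were all member probe sets, the 3 nearest genes of each member probe set with a range of at least 0.5, and up to 6 list genes at an unadjusted p under 0.05, or the 2 of lowest p. Srf, Chd4 and the genes of the marker lists fell outside this rule and were chosen after their values were seen. Members and lists were chosen with earlier results of these data known.

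The number of arrays limits the precision. The main fit did not pair the pools by number, and the labels used here do not say whether same-numbered pools belong together. Same-numbered deviations from the group means correlated at 0.097, 0.17 and -0.28, which cannot settle how the pools were handled.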

Additional observations from a re-analysis of the deposited data

How the results depend on the processing

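Of 31042 probe sets, 0 passed the adjusted threshold in limma (2070 at an unadjusted p under 0.05). With a trend and robust prior 1 passed. When the less variable probe sets were dropped (SD below the median), 62 passed, and 944 had an unadjusted p under 0.05, a fit with fewer probe sets tested. No member passed under any of the alternatives run. Directions turned in few of them. Egr1 was at -0.055 without lean pool 3 and overfed pool 1 together. Egr2 1398266_a_at was at 0.29 in the mean of both Egr2 probe sets, by construction, and ran from -0.082 to 0.090 with 1 pool left out. Egr4 1387442_at was at 0.029 with array weights and 0.0056 with quantile normalization, and ran from -0.13 to 0.12 with 1 pool left out. Nab1 1393172_at ran from -0.058 to 0.0042 and Nab2 from -0.19 to 0.081 with 1 pool left out. The causes were not tested. The first Egr2 probe set, Egr3, Egr4 1375784_at and Nab1 1369409_at kept their sign in every alternative run for them (neither Nab1 probe set was in the fit of the more variable ones), and that Egr2 probe set had an unadjusted p under 0.05 in 7 of 14. With the pool number as a replicate block, 0 probe sets passed and 1757 had an unadjusted p under 0.05. The block left the Egr1 difference at 0.21 (limma adjusted p = 0.881) and changed no member's call. Among Egr target genes, 1 in place of 3 had an unadjusted p under 0.05 with it. Not every pool correlated best with its own number.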
